A study of Mus musculus with 4 samples.

Results

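The 47 genes described here copy DNA in S phase: they license origins, unwind and synthesise DNA, load the sliding clamp, supply nucleotides and deposit histones. They were taken by name from a fixed list, each read on its brightest probe set, by the average of the 4 arrays, among those annotated to 1 gene symbol, and 46 were measured among 18193 genes. The remaining gene, Chaf1a, matched no such probe set and was not analysed here. RNA came from mouse TT2 embryonic stem cells carrying an Etv2-Venus knock-in on one allele, which both populations share, grown on the OP9 stromal line. The sample labels give day 5, the design text 4 to 5 days, and Flk-1 positive cells were sorted into a fraction without Etv2-Venus (Flk-1+/Etv2-) and one with it (Flk-1+/Etv2+), with 2 arrays of each. Flk-1, encoded by Kdr, marks mesoderm with blood and vessel potential, and Etv2 is an ETS factor that starts that program. Whether the arrays stem from separate cultures is not said in the labels, so p-values speak only of the scatter among these arrays, possibly a technical one, and their number limits the precision.

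In late mitosis and G1 the origin recognition complex, Cdc6 and Cdt1 place the Mcm2 to Mcm7 ring on DNA in an inactive form. The kinases Cdc7-Dbf4 and Cdk2 then recruit Cdc45 and the GINS complex, which turn the ring into the active helicase. Many of these genes are transcribed under E2F control at the G1/S boundary, while genes of mitosis are commonly controlled later in the cycle through a promoter element called CHR. In the mouse embryo, mesoderm leaving the primitive streak is a rapidly dividing tissue. On bulk arrays fewer cells of a type and less RNA per cell cannot be told apart, and the share of cells in S phase was not measured.

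To show how the promoters of these genes differ, the windows of 5 members are printed from RefSeq, on GRCm38.p6, from 250 bases before to 30 bases after the annotated start, on the strand of the gene. The first 4 hold an E2F motif in capitals and were taken by a rule: the 2 members with such a motif and the largest moderated t towards lower signal in Etv2-Venus positive cells, Mcm6 (chr1:128359676-128359955, minus strand) and Orc1 (chr4:108579204-108579483, plus strand), and the 2 towards higher signal, Gins3 (chr8:95633309-95633588, plus strand) and Rfc3 (chr5:151651179-151651458, minus strand). Cdc45 (chr16:18811943-18812222, minus strand) was added after its values were seen, because it had the largest difference towards Etv2-Venus positive cells, and its capitals mark the CHR motif.
Mcm6: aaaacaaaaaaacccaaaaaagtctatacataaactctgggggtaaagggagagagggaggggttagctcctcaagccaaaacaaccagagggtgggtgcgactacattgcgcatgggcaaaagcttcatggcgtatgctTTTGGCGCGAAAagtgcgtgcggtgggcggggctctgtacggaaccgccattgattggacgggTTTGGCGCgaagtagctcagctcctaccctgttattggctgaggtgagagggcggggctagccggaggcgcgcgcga
Orc1: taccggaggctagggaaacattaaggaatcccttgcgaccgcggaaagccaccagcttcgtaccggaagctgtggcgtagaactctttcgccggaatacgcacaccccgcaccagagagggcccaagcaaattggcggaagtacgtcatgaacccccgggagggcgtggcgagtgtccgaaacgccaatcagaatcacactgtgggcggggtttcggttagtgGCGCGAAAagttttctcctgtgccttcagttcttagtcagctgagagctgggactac
Gins3: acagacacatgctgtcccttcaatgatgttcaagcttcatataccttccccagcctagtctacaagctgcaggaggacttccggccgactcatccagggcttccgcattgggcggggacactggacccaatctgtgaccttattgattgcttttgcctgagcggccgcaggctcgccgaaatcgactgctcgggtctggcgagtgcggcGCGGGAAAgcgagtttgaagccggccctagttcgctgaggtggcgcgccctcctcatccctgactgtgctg
Rfc3: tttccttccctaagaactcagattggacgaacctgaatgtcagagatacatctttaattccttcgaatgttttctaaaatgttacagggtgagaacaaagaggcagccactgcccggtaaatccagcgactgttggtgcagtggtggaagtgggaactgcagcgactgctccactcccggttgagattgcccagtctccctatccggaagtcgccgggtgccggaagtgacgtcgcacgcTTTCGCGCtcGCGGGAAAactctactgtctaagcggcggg
Cdc45: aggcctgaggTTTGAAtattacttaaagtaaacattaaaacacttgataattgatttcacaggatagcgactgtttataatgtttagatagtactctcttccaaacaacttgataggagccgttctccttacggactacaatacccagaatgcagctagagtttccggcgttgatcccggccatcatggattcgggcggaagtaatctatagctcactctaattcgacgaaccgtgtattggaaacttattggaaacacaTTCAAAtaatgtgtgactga

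The E2F motif was searched as TTTCCCGC, TTTCGCGC, TTTGCCGC or TTTGGCGC and the CHR motif as TTTGAA, both on either strand over the 300 bases of the table's windows. In Mcm6 the first capital run joins 2 overlapping E2F matches, on opposite strands, and a further match lies 47 bases before the start. Orc1 held 1 match 27 bases before its start, Gins3 held 1 match 41 bases before, and Rfc3 held 2, of which 1 begins 10 bases before the start. Gins3 also held a CHR motif 28 bases before its start, left in lower case.

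Of the 47 genes 38 had a window in the table, and 13 of them (34.2%) held an E2F motif: Orc1, Cdc6, Cdt1, Mcm3, Mcm5, Mcm6, Mcm7, Gins3, Pola1, Pold1, Pole2, Rfc3 and Lig1. Over all 27025 genes with a window the share was 2.60%, and over the 14452 of them measured on the array 3.81%. The CHR motif was found in 5 members (13.2%), Mcm2, Gins3, Cdc45, Pold2 and Fen1, against 20.2% of all genes and 15.7% of those measured, which is close to the share in members. The genes of G2 and mitosis, a list chosen for comparison, had an E2F motif in 1 of 23 genes (4.35%) and a CHR motif in 16 (69.6%). Genes with several annotated starts were counted once if any window held the motif, and base composition was not taken into account. These shares describe sequence alone, and a match is not a shown binding site. Only exact matches within the window were searched, so a gene without a match is not shown to lack such control.

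**Figure D1:**
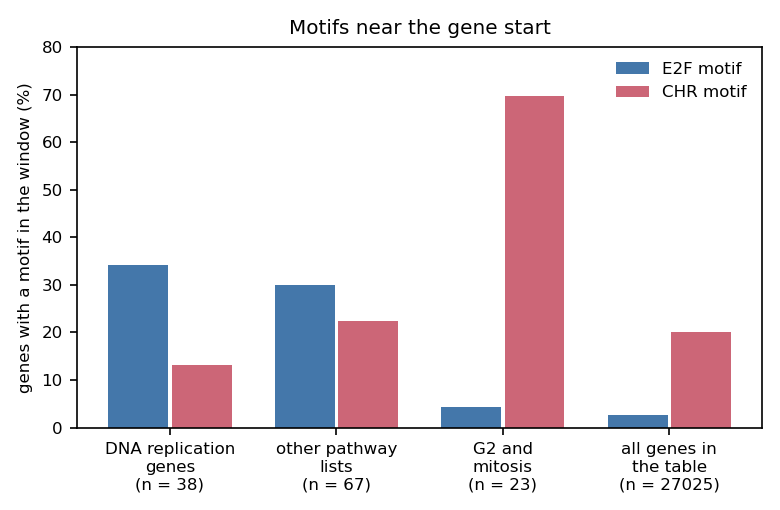
Bars give the percentage of genes with an E2F motif (blue) or a CHR motif (red) in the 300-base window at an annotated start, for 38 replication genes, 67 genes of the other pathway lists, 23 genes of G2 and mitosis and all 27025 genes in the table. The E2F motif was in 34.2% of replication genes and the CHR motif in 69.6% of G2 and mitosis genes.

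Replication genes had nearly the same signal in both populations. Their log2 differences, taken throughout as the mean of the positive arrays minus that of the negative ones, had a median of 0.03 and ran from -0.34 for Tyms to 0.41 for Cdc45, with 25 above 0 and 21 below. The median over all 18193 genes was 0.01, with 9630 above 0 and 8561 below. When each array was centred on its median, which moved all genes up by less than 0.1, the split became 31 above and 15 below. Over all genes it then became 11511 above and 6682 below, a share close to that of the members. No member differed 2-fold, as 1.02% of all genes did. None passed an adjusted p of 0.05 in limma (Benjamini-Hochberg over all genes), where the background was 0.0%, and the smallest adjusted p among them was 0.184, for Cdc45. At an unadjusted p under 0.05 limma had 4 members higher (8.70%, against 7.07% of all genes) and 1 lower (2.17%, against 4.64%). The 4 were Cdc45, Rfc4, Rfc5 and Rrm2, and the 1 was Mcm6. With a single array left out, differences ran from 0.37 to 0.45 for Cdc45, 0.27 to 0.32 for Rfc4 and 0.24 to 0.27 for Rfc5. They ran from 0.23 to 0.34 for Rrm2 and from -0.37 to -0.28 for Mcm6. Fewer members had an unadjusted p under 0.05 in those fits, as was so over all genes. Both positive arrays lay above both negative arrays for 19 members (41.3%, against 22.4% of all genes) and below them for 7 (15.2%, against 17.0%).

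How large a difference these arrays leave room for can be read from the intervals of the fit. For 36 of the 46 members (78.3%) the 95% interval of the difference lay wholly within 0.5 log2 units of 0, which is a change of less than 1.41-fold, as it did for 62.8% of all genes. For 45 members (97.8%, against 94.4% of all genes) it lay within 1 log2 unit, a change of less than 2-fold. The exception was Tyms, with an interval from -1.28 to 0.61. Each interval holds for 1 gene and was not widened for the number of genes.

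**Figure D2:**
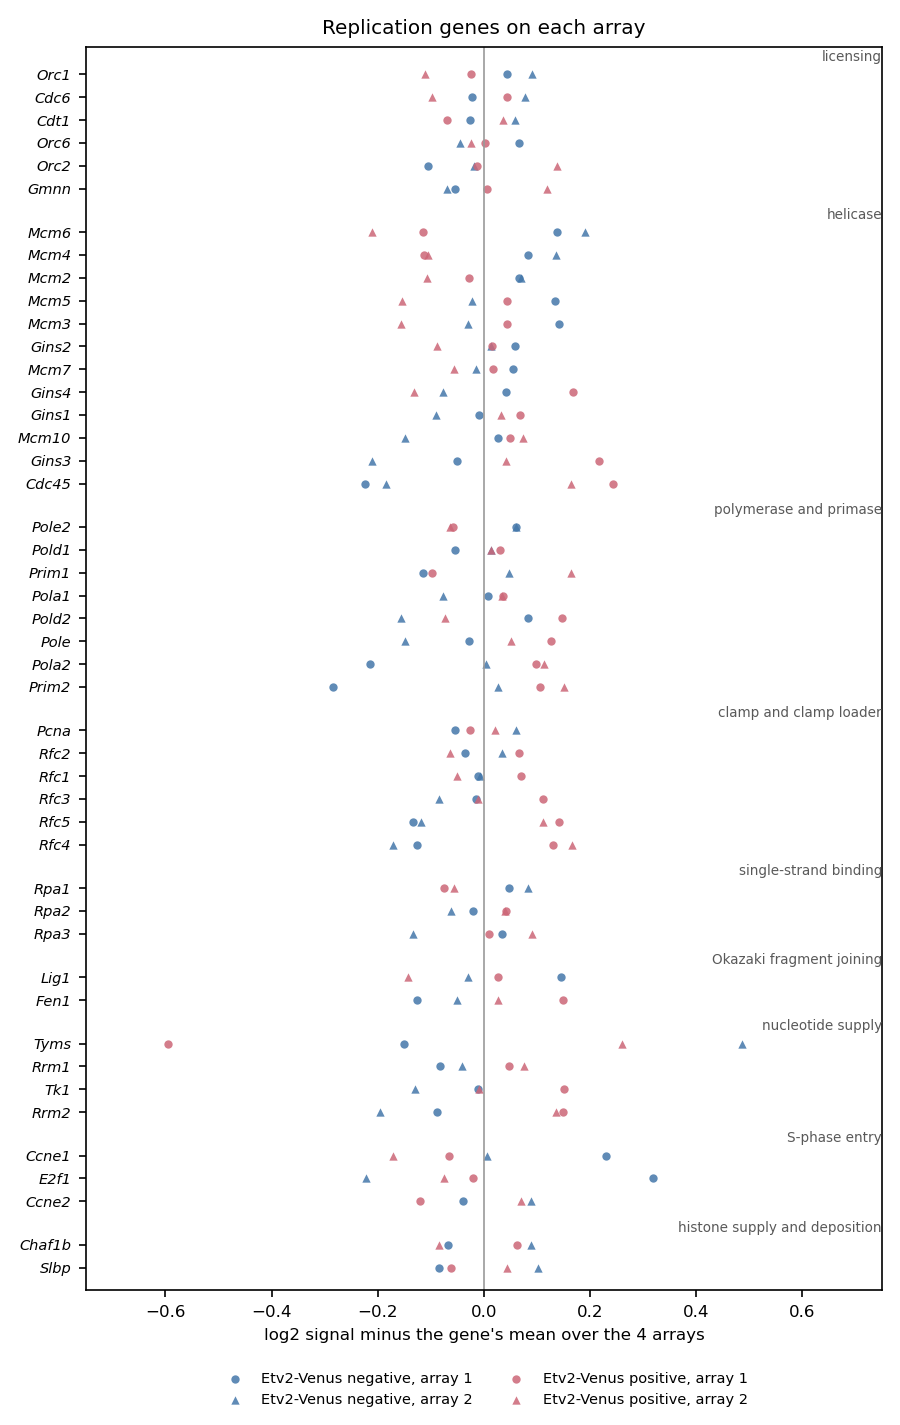
Each row is a replication gene, grouped by role, and the points are its log2 signal on the 2 Etv2-Venus negative (blue) and 2 positive (red) arrays minus its mean over the 4 arrays, with circles for arrays numbered 1 and triangles for 2. Red and blue points are apart for 19 genes with red higher and 7 with red lower, and Tyms has the widest scatter.

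Licensing factors differed little between the populations on the probe sets used. Orc1, the subunit of the origin recognition complex that is made anew in each cycle, measured 9.02 and 9.06 in negative cells against 8.95 and 8.86 in positive cells, a difference of -0.13 (SE 0.09, n = 2 arrays per population). Both positive arrays were below both negative arrays, and the interval of the fit, -0.37 to 0.10, includes 0. A second, dimmer probe set of Orc1 gave -0.56, and the average of its probe sets -0.35. Orc2, a core subunit of the same complex, was at 0.12 (SE 0.10) and Orc6, its smallest subunit, at -0.02 (SE 0.09). The loading factors Cdc6 and Cdt1 were at -0.06 (SE 0.10) and -0.03 (SE 0.10), with overlapping arrays. Geminin, encoded by Gmnn, binds Cdt1 and blocks a second round of licensing, and it measured 11.21 and 11.19 in negative cells against 11.27 and 11.38 in positive cells, a difference of 0.12 (SE 0.09). The intervals of all 6 licensing genes lay within 0.5 of 0.

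On the probe sets used for the helicase the ring subunits measured slightly lower in positive cells and Cdc45 higher. All 6 subunits of the Mcm2 to Mcm7 ring had a difference below 0, with a median of -0.12, and this count was 5 of 6 when arrays were centred on their medians, where Mcm7 was at 0.0003, and 5 of 6 when all probe sets of a gene were averaged, where Mcm3 was at 0.01. Mcm6 measured 12.14 and 12.19 in negative cells against 11.89 and 11.79 in positive cells, a difference of -0.33 (SE 0.09, 1.25-fold; limma adjusted p = 0.286). Mcm4 measured 12.15 and 12.20 against 11.95 and 11.96, a difference of -0.22 (SE 0.09), and Mcm2 11.57 and 11.57 against 11.47 and 11.40, a difference of -0.14 (SE 0.09). For these 3 of 6 subunits both positive arrays were below both negative arrays, as for 17.0% of all genes. Mcm3 and Mcm5, both at -0.11 (SE 0.12), and Mcm7, at -0.04 (SE 0.09), had overlapping arrays. Mcm2, Mcm3, Mcm5 and Mcm7 were read on probe sets whose design allows binding to similar transcripts, and with plain probe sets chosen where a gene had one all 6 differences were again below 0, with a median of -0.14.

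Cdc45, which joins the ring to form the working helicase, measured 8.18 and 8.22 in negative cells against 8.65 and 8.57 in positive cells. Its difference of 0.41 (SE 0.09, 1.33-fold; limma adjusted p = 0.184) was the highest of the 46, with the populations well apart. A second probe set of Cdc45, dimmer at a mean of 7.01, gave -0.11, so the direction was not the same on both. The average of its probe sets was 0.15. Gins3, a subunit of the GINS ring, measured 7.62 and 7.46 against 7.89 and 7.72, a difference of 0.26 (SE 0.12), again with positive arrays above negative ones. The other GINS subunits were smaller, with Gins1 at 0.10 (SE 0.09), Gins4 at 0.04 (SE 0.14) and Gins2 at -0.07 (SE 0.09). Mcm10, a factor that helps activate the loaded helicase, was at 0.12 (SE 0.10). The difference between Cdc45 and the Mcm subunits was not tested.

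Among the polymerases 7 of 8 genes were above 0 (6 with other choices of probe set, where Pold1 turned), with a median of 0.07. For 5 of the 8 (62.5%) both positive arrays were above both negative arrays, against 22.4% of all genes. Prim2, the large subunit of primase, which lays down the RNA primer, measured 8.66 and 8.97 in negative cells against 9.05 and 9.10 in positive cells, a difference of 0.26 (SE 0.13), and a second probe set of Prim2 also gave 0.26. Pola2, the accessory subunit of polymerase alpha, which extends that primer, was at 0.21 (SE 0.11), and the catalytic subunits Pola1 and Prim1 at 0.07 (SE 0.09) and 0.07 (SE 0.13). Pole, the catalytic subunit of the leading-strand polymerase, was at 0.18 (SE 0.10), whereas its partner Pole2 was at -0.12 (SE 0.09), with 10.11 on both negative arrays and 9.99 and 9.98 on the positive ones. Pold1 and Pold2, the catalytic and accessory subunits of polymerase delta on the lagging strand, were at 0.04 (SE 0.09) and 0.07 (SE 0.14). On the probe sets used polymerase epsilon was thus mixed in sign, while the members of alpha, primase and delta were above 0. Of the delta subunits outside the members, named after their values were seen, Pold3 was at -0.01 (SE 0.09) and Pold4 at 0.17 (SE 0.10).

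In the sliding clamp and its loader 2 small subunits measured higher in positive cells and the clamp itself was level. Pcna, the clamp that holds polymerases on DNA, measured 13.49 and 13.60 in negative cells against 13.52 and 13.56 in positive cells, a difference of -0.01 (SE 0.09; interval -0.25 to 0.24). Rfc4 measured 10.47 and 10.43 against 10.73 and 10.76, a difference of 0.30 (SE 0.09, 1.23-fold; limma adjusted p = 0.304), and a second probe set of Rfc4 gave 0.33. Rfc5 measured 10.19 and 10.20 against 10.46 and 10.43, a difference of 0.25 (SE 0.09; limma adjusted p = 0.372). Both are small subunits of the loader that opens the clamp, and on both the positive arrays were above the negative ones by more than the spread within a population. Rfc1, the large subunit, was at 0.02 (SE 0.09), Rfc2 at 0.00 (SE 0.10) and Rfc3, with its positive arrays narrowly above, at 0.10 (SE 0.10). Rpa1, Rpa2 and Rpa3, which coat single-stranded DNA, were at -0.13 (SE 0.09), 0.08 (SE 0.09) and 0.10 (SE 0.11). Fen1, the nuclease that trims Okazaki fragments, was at 0.18 (SE 0.10) and the ligase Lig1 that seals them at -0.12 (SE 0.12).

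Nucleotide supply had 3 of its 4 genes above 0. Rrm2, the regulated subunit of ribonucleotide reductase, measured 12.07 and 11.96 in negative cells against 12.31 and 12.30 in positive cells, a difference of 0.29 (SE 0.09, 1.22-fold; limma adjusted p = 0.344). Its other probe sets gave 0.29 and 0.25, so all 3 were higher in the positive cells. The partner subunit Rrm1 was at 0.12 (SE 0.09) and thymidine kinase, Tk1, at 0.14 (SE 0.11). Thymidylate synthase, Tyms, measured 5.99 and 6.63 against 5.55 and 6.41, near the array medians of 5.46 to 5.52, where RMA compresses differences. The Tyms arrays differed more by array number than by population, its difference was -0.34 (SE 0.36), and this turned to 0.09 at the highest when a single array was left out. The other probe sets of Tyms, all with a mean below 6, gave 0.45, 0.11 and -0.25, and the average of its probe sets was -0.005.

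The genes that start S phase were all 3 below 0, with intervals that include 0. Ccne1, a cyclin that drives Cdk2 at the G1/S boundary, measured 10.26 and 10.03 in negative cells against 9.96 and 9.86 in positive cells, a difference of -0.24 (SE 0.12), and a second probe set gave -0.19. Both positive arrays of Ccne1 were below both negative ones, but the interval ran from -0.54 to 0.07. Ccne2, the related cyclin, was at -0.05 (SE 0.11). E2f1, an activating E2F factor, measured 8.47 and 7.93 against 8.13 and 8.08, a difference of -0.10 (SE 0.20). Its negative arrays lay on either side of the positive ones. Chaf1b, a subunit of the chromatin assembly factor, and Slbp, which binds histone mRNA, were both at -0.02 (SE 0.11), and both turned above 0 when arrays were centred on their medians.

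**Figure D3:**
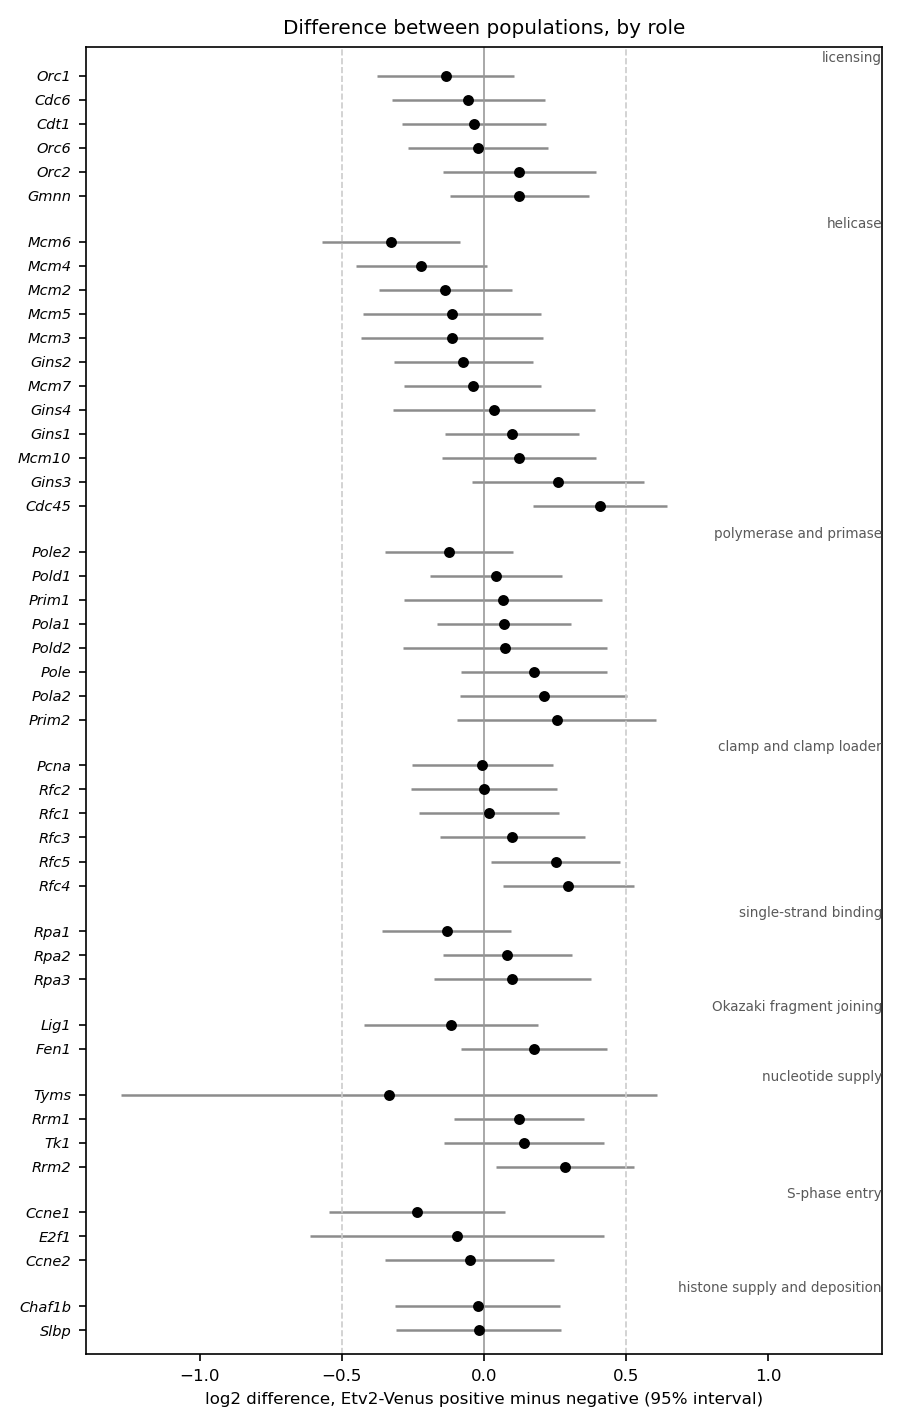
Points are the log2 difference, Etv2-Venus positive minus negative, of each replication gene with its 95% interval from limma, by role, and dashed lines mark 0.5 log2 units. Intervals exclude 0 for Cdc45, Rfc4, Rfc5 and Rrm2 on the higher side and for Mcm6 on the lower side, before any adjustment for the number of genes.

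Further probe sets gave a second reading of the same RNA. Of 54 further probe sets of the members 37 had a mean of at least 6, covering 27 genes, and 30 of the 37 had the sign of the probe set used. The median gap between both readings was 0.05. Mcm6 was at -0.16 on its second probe set and Mcm4 at -0.02, so both were closer to 0 there. The dimmer probe set of Orc1, at -0.56, had a mean of 7.68. The largest gap, 0.52, was that of Cdc45. The 7 probe sets with the opposite sign belonged to Mcm3 (2 of them), Mcm5, Cdc45, Pold1, Rfc1 and Rfc3.

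**Figure D4:**
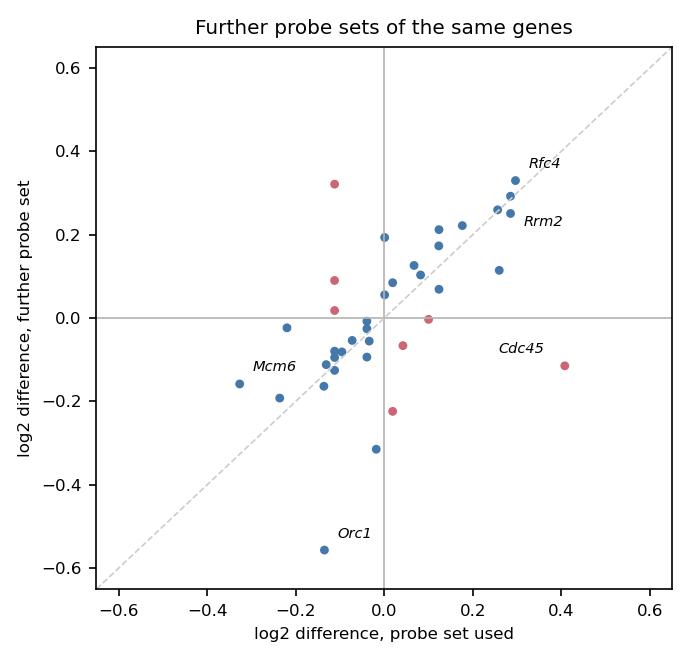
Each point is a further probe set with a mean of at least 6, at its log2 difference (vertical) against that of the probe set used for the same gene (horizontal), with the dashed line marking equality. The 30 blue points share the sign and the 7 red points do not, and Cdc45 has the largest gap.

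The other genes of the pathway, in 4 lists, were centred close to 0 as well. Of 77 listed genes 74 were measured, with a median of 0.05, and none passed an adjusted p of 0.05 in limma. At an unadjusted p under 0.05 there were 8 higher (10.8%, against 7.07% of all genes) and 1 lower (1.35%, against 4.64%). In the fit of genes with a mean of at least 6 the shares over its genes were 10.4% and 5.94%. The first list holds further replication factors, with a median of 0.05 over 29 genes. Dbf4, which activates the kinase Cdc7, measured 10.77 and 10.89 in negative cells against 11.22 and 11.38 in positive cells, a difference of 0.47 (SE 0.11), and Cdc7 itself was at 0.32 (SE 0.11). Ticrr, which helps recruit Cdc45, was at 0.42 (SE 0.12), and Dscc1, part of an alternative clamp loader, at -0.30 (SE 0.09). The limma adjusted p of these 4 ran from 0.195 for Dbf4 to 0.366 for Cdc7.

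Regulators of S phase other than the members had a median of 0.15, with 16 of 17 above 0 (15 after quantile normalization run again). E2f8 and E2f7, repressors of the E2F family that act later in S phase, measured 8.58 and 8.54 against 9.00 and 9.04 and 9.47 and 9.38 against 9.71 and 9.74, differences of 0.46 (SE 0.09) and 0.30 (SE 0.09). On both genes every positive array was above every negative array, as for 22.4% of all genes. The same held for E2f3, at 0.08 (SE 0.09), but not for the activator E2f1 or for E2f2. E2f3 and E2f2 were named after their values were seen. Rbl1, a pocket protein that restrains E2F, was at 0.32 (SE 0.09) and Ccna2, the cyclin of S phase and G2, at 0.36 (SE 0.13). Among 16 genes of nucleotide metabolism none had an unadjusted p under 0.05 in limma, and Shmt1, Dctpp1, Dut and Nme1, the 4 with the smallest p, lay between -0.12 and 0.20. Of 12 genes that copy chromatin, the histone chaperone Asf1b differed most, at 8.72 and 8.28 against 9.45 and 9.01, a difference of 0.73 (SE 0.22). Rbbp7, Hells and Dnmt1 were at -0.19 (SE 0.09), -0.18 (SE 0.09) and 0.16 (SE 0.11).

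Genes of G2 and mitosis, measured on the same arrays, were higher in the Etv2-Venus positive cells, as is known from an earlier look at these data, which is also why they serve here only as a yardstick. Their median was 0.87 over 26 genes, and for 25 of them both positive arrays were above both negative arrays (96.2%, against 22.4% of all genes). Cdk1, which drives entry into mitosis, measured 10.96 and 10.71 in negative cells against 11.98 and 11.86 in positive cells, a difference of 1.09 (SE 0.12). Kif23, a motor of cell division, Aurka, a mitotic kinase, and Cenpe, a motor at the kinetochore, were at 0.98 (SE 0.09), 1.04 (SE 0.10) and 0.89 (SE 0.09), and the limma adjusted p of these 4 ran from 0.0670 to 0.0802. At an adjusted p of 0.05 limma called 0 of the 26, 3 when genes were required to have a mean of at least 6, and 5 under a robust fit with a mean-variance trend. The exception among the 26 was Ccnb2, at 0.06 (SE 0.09), named after its value was seen. Only Ccnb2, at 0.06, and Bub1, at 0.38, both chosen after their values were seen, had a difference as small as that of Cdc45, the highest replication gene. No test was made of the gap between the replication and mitosis genes as lists.

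**Figure D5:**
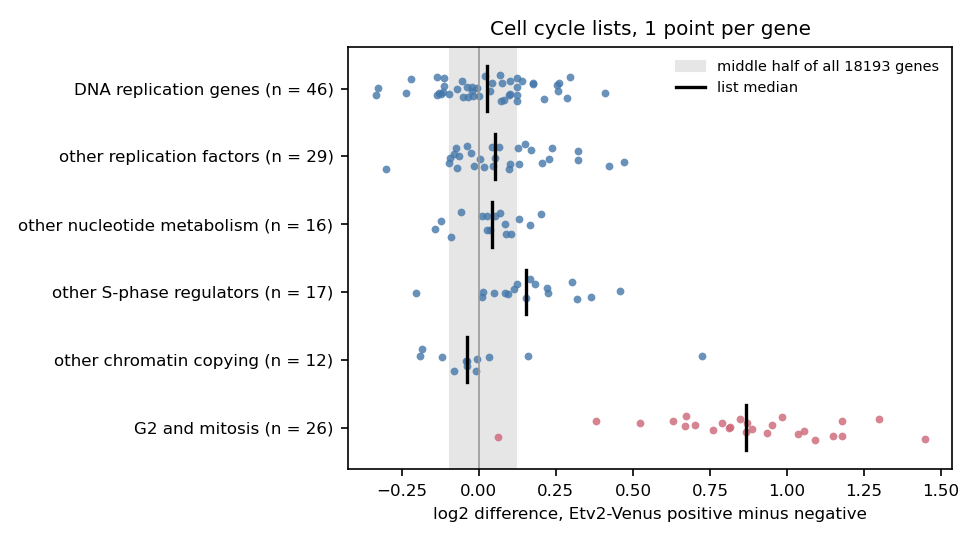
Points are genes at their log2 difference, Etv2-Venus positive minus negative, in 6 lists, with the list median as a black line and the grey band spanning the middle 50% of all 18193 genes. The median was 0.03 for the 46 replication genes and 0.87 for the 26 genes of G2 and mitosis.

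Among replication genes those with an E2F motif had a median difference of -0.06 over 13 genes and those without one 0.08 over 24 genes with a window. Among helicase genes the contrast was -0.11 over 5 against 0.12 over 3. In the other pathway lists together the order was not the same, with 0.07 over 19 genes with the motif and 0.05 over 46 without it. Over all genes with a window the medians were 0.02 over 550 genes with the motif and 0.01 over 13902 without it. The 5 members with a CHR motif had a median of 0.18, against -0.01 over the 32 without it, while over all genes the values were 0.02 and 0.01. These medians of the members are descriptions of few genes, and the groups were split only by exact matches in the window.

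Other features of the same arrays are given beside these values. Etv2 was at 0.57 (SE 0.13), with the populations apart, and Kdr, on which both populations were selected, at 0.13 (SE 0.12), with overlapping arrays. Both positive arrays were above both negative ones for 22.4% of all genes and below them for 17.0%. Endothelial markers were higher on both positive arrays for 11 of 12 genes, with summed linear levels of 3948 to 4187 on the negative and 8067 to 8213 on the positive arrays, led in level by Flt1, Egfl7 and Flt4. Nascent mesoderm markers were lower on both for 10 of 12. They summed to 14462 to 19299 on the negative and 6348 to 8274 on the positive arrays. The brightest were Eomes, Lhx1 and Mixl1, and the arrays of Mixl1 overlapped. Markers of OP9 stroma and fibroblasts, with Cebpb, Col1a2 and Acta2 brightest, were lower on both positive arrays for 4 of 14 and higher for 0. They summed to 4029 and 3317 on negative arrays 1 and 2, and to 3508 and 2786 on positive arrays 1 and 2. In both populations the sum was thus higher on array 1. On all 4 arrays 6 of these 14 were above the array median and 5 below it, namely Postn, Lox, Dcn, Lum and Vcam1, which were named after their values were seen. Erythroid markers summed to 367 to 389 and 388 to 391, with Epor, Gata1 and Hba-x brightest, and did not separate the populations as a list, with 2 of 8 higher and 2 lower, close to the shares over all genes. Tfrc, whose probe sets along the transcript track RNA integrity, had a 3' minus 5' log2 signal of 1.46 and 0.85 in negative cells against 1.91 and 1.21 in positive cells, and these overlap. The same measure of Pcx was 1.06 and 0.85 against 0.92 and 0.58, which overlap. That of Actb was 0.41 and 0.40 against 0.47 and 0.51, and that of Gapdh -0.03 and -0.04 against 0.0003 and 0.0014. For Actb and Gapdh both positive arrays were above both negative ones. The part of cell makeup or RNA quality in the differences of the replication genes was not tested.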

How the data were processed

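Total RNA of 4 samples was labelled with biotin for Affymetrix 3' expression arrays, per the labels' protocols. For each probe set the authors deposited a log2 signal, and the submitters' processing notes name RMA and R 2.8.0. The log base was taken from the values. RMA removes a shift common to all genes and compresses differences near background. Genome build and annotation are not given in the sources used here. Symbols came from the platform's annotation, checked by Entrez identifier against RefSeq genes of GRCm38.p6. Of 45101 probe sets, 34945 had 1 symbol and were not controls, 932 had several and 9160 had none listed.

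Groups and array numbers came from the sample titles. Differences were fitted by limma 3.58.1 (lmFit, then eBayes; R 4.3.3) on the group alone, with 2 residual and 2.68 prior degrees of freedom, two-sided, with Benjamini-Hochberg adjustment over 18193 genes and a threshold of 0.05. Intervals are at 95%. The step was tested on simulated data. The members and lists were chosen with earlier results of these data known. All members were open to naming, with the 4 genes of smallest p in each other pathway and the mitosis list, and 3 genes of highest mean per marker list. Motifs were searched in RefSeq windows of GRCm38.p6. Alternatives covered the choice of probe set, a minimum mean of 6, the variance model, normalization, the array number as a block and each array left out. Figures were drawn with matplotlib 3.10.9.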

Additional observations from a re-analysis of the deposited data

How the results depend on the processing

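Of the 13 alternatives 5 change the test and leave each difference of the 46 replication genes as it is. Under the other 8, which can change a difference, 36 of 368 differences, of 17 genes, turned. Of the 17 genes 15 had a difference under 0.1 in size to begin with, and the exceptions were Mcm3 and Tyms. The mean over all probe sets turned Mcm3 (0.0106), Pold1 (-0.0119), Rfc1 (-0.0400) and Chaf1b (0.0715), and plain probe sets turned Pold1 (-0.0662). Quantile normalization run again turned Rfc1 (-0.0112) and Rfc2 (-0.0367). Centring arrays on their medians turned Orc6 (0.0186), Cdt1 (0.0056), Mcm7 (0.0003), Pcna (0.0338), Chaf1b (0.0169) and Slbp (0.0214). Over the fits that leave out 1 array, which assume that the lone array varies like the other population, differences ranged from -0.0770 to 0.0355 for Orc6, -0.1257 to 0.0156 for Cdc6, -0.0873 to 0.0198 for Cdt1 and -0.1142 to 0.1847 for Gins4. They ranged from -0.0636 to 0.1985 for Prim1, -0.0466 to 0.1938 for Pold2, -0.0628 to 0.0516 for Pcna, -0.0408 to 0.0789 for Rfc1 and -0.0637 to 0.0658 for Rfc2. For Tyms they ran from -0.7629 to 0.0925, for Ccne2 from -0.1447 to 0.0443, for E2f1 from -0.3656 to 0.1749, for Chaf1b from -0.1005 to 0.0557 and for Slbp from -0.1112 to 0.0753. The cause was not tested.

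The median over the replication genes was 0.0100 with plain probe sets, -0.0051 after quantile normalization run again and 0.0665 after centring, which moved the median of all genes from 0.01 to 0.05. It ran from 0.0263 to 0.0508 with 1 array left out. Of all genes limma called 79 among those with a mean of at least 6 and 112 under a robust fit with a mean-variance trend, against 0, and 0 replication genes in both. Of the 26 mitosis genes these fits called 3 and 5. At an unadjusted p under 0.05 in limma 7 of 100 probe sets of members were higher when every probe set was tested, against 5.63% of all probe sets. There were 2 members lower with the minimum mean of 6, with the trend and after quantile normalization. The shares over all genes in these fits were 5.94%, 4.58% and 4.45%. With 1 array left out fewer members had an unadjusted p under 0.05 in limma, as was so over all genes.

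The labels do not say that array numbers mark shared cultures. Differences between arrays 1 and 2 correlated at 0.54 over genes between the populations. With the array number as a replicate block limma called 0 genes, and had 5 of the 46 members higher and 4 lower at an unadjusted p under 0.05. Over all genes these shares were 11.4% and 8.85%, close to those of the members. With the block, trend and robust estimation limma called 977 genes, among them 1 member, Rrm2 (limma adjusted p = 0.0476), and 22 mitosis genes. In that fit 10 of the 46 members were higher and 9 lower at an unadjusted p under 0.05 in limma. Both shares were above those over all genes, 12.9% and 9.53%. The adjusted p of Rrm2 under the other alternatives was above 0.05.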
